A study of Mus musculus with 8 samples.

Results

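Cytosolic ribosomal protein genes were followed across 4 groups of sorted mouse bone marrow cells. The genotype Erg fl/fl, called control here, gave pre-proB, proB and preB cells, and the genotype Rag1Cre T/+;Erg Δ/Δ, called Erg-deleted here, gave pre-proB cells. Members were the protein-coding genes whose symbol was Rpsa, Rplp0, Rplp1 or Rplp2, or started with Rpl or Rps and a digit, without pseudogenes and without the kinases and binding proteins named after a ribosomal protein. This rule took 87 of the 27179 genes in the count table. Of these, 77 encode the standard subunit proteins, 46 of the large subunit (3 of them P stalk proteins) and 31 of the small subunit, and 10 are paralogs or retrogenes, described apart.

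Each group held 2 libraries, from 2 mice of each genotype that were sorted independently, on a C57BL/6J background and between 7 and 10 weeks old. The 3 control stages may thus come from the same mice, but the labels do not tie libraries to mice. Both alleles of Erg, an Ets family transcription factor, were flanked by loxP sites in all mice. Control mice carried no Cre, whereas Rag1Cre, which acts from the common lymphoid progenitor onwards, removed it in the Erg-deleted mice, so that the Cre allele and the loss of Erg cannot be told apart. The study asked which transcripts depend on Erg in pre-proB cells. Pre-proB cells were gated as B220+ IgM- IgD- NK1.1- CD11c- CD43+ CD24-, proB cells as CD43+ CD24+ and preB cells as CD43- CD24+.

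The ribosome is built from a small subunit, which decodes mRNA, and a large subunit, which joins amino acids. Their proteins are made in near-equal amounts, and proteins left unassembled are degraded. The mRNAs of ribosomal proteins and of translation elongation factors belong to the TOP class, which begin at a C followed by a tract of pyrimidines. Through this tract their translation depends on mTOR and on the binding protein Larp1, and Myc is known to raise transcription of many of them. Large pre-B cells and cycling proB cells are known for growth and division, whereas small resting pre-B cells leave the cycle.

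Library totals ranged from 15565381 to 18457632 counts. Erg itself was measured at 69.1 and 25.3 CPM (counts scaled to a common library size after TMM normalization) in control pre-proB cells and at 2.50 and 2.58 CPM in Erg-deleted pre-proB cells. The pre-proB libraries of both genotypes carried markers of other cells. The summed level of 8 plasmacytoid dendritic cell markers was 12221 and 13236 CPM in control pre-proB cells, against 501 to 536 CPM in proB and 409 to 423 CPM in preB cells. In Erg-deleted pre-proB cells it was 14149 and 14722 CPM. The 10 B-lineage markers summed to 2128 and 1009 CPM in the control pre-proB libraries, to 5604 and 5343 CPM at the proB stage and to 7219 and 7770 CPM at the preB stage. In bulk samples such as these, fewer cells of a type and less RNA per cell cannot be told apart. CPM values are also shares of a library, so that the amount of ribosomal protein mRNA in a cell was not measured.

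The 77 standard members took 4.28% and 4.27% of all counts in the control pre-proB libraries. In proB cells their share was 5.61% and 5.92%, in preB cells 3.94% and 4.48%, and in Erg-deleted pre-proB cells 4.16% and 4.66%. Both proB libraries thus stood above the other 6, which overlapped between groups. The 2 libraries of a group were not equally close. All 77 members were higher in replicate 2 than in replicate 1 of the preB cells, and likewise in the Erg-deleted pre-proB cells, so that the members moved together between libraries of 1 group as well as between groups. With 2 libraries against 2, the smallest p that an exact permutation test can give is 0.33, and the tests given next come from models fitted across all genes. Such tests treat each gene by itself and do not count the movement that the members shared.

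**Figure D1:**
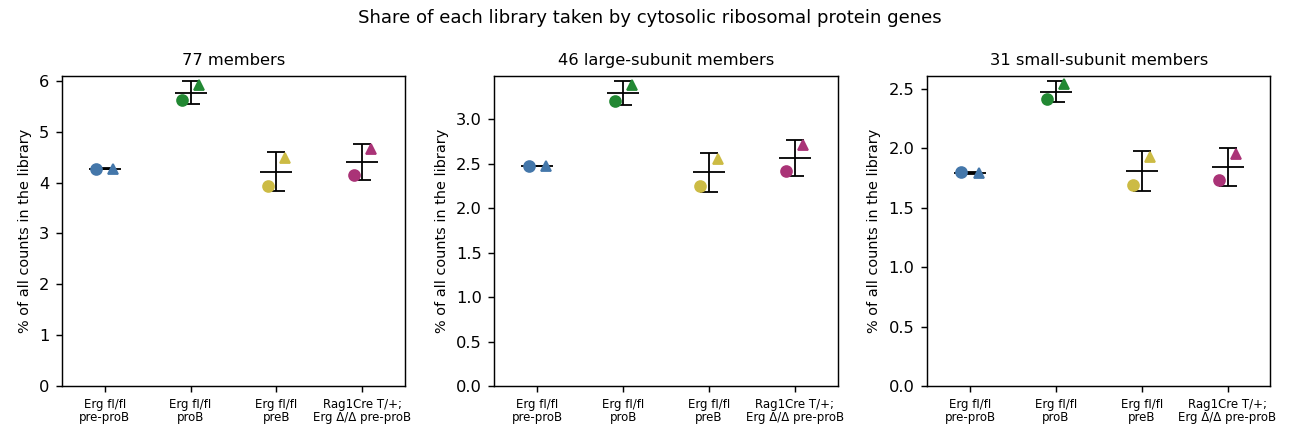
Percentage of all counts in each library (vertical axis) taken by the 77 members, the 46 large-subunit members and the 31 small-subunit members, by group; circles are replicate 1, triangles replicate 2, bars the mean ± SD of the 2 libraries. The proB libraries sit at 5.61% and 5.92% for all members, above the other 6 libraries, which lie between 3.94% and 4.66%.

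The ratio of large-subunit to small-subunit counts was narrow. It was 1.38 and 1.39 in control and 1.40 and 1.39 in Erg-deleted pre-proB cells. The proB libraries had ratios of 1.33 and 1.34, and the preB libraries of 1.33 and 1.32. The 4 pre-proB libraries lay above the other 4 without overlap. The large-subunit counts include Rpl10 and Rpl31, at means of 1440.5 and 1060 CPM in control pre-proB against 799 and 376 CPM in preB cells. Their part in this split was not tested, so that it cannot be read as a shift of the whole subunit.

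Levels can be compared between genes only per length. On the scale of mean CPM per kb of the shortest principal transcript over the 8 libraries, the members had a median level of 737, with quartiles of 556 and 999. The highest levels were those of Rps27 at 2008, Rpl31 at 1604 and Rplp1, a P stalk protein that recruits elongation factors, at 1594. Among the lowest were those of Rpl39 at 1.07 and Rps20 at 190, and the value of Rps20 rests on an annotated transcript of 3706 bases. Rpl39, a protein of the peptide exit tunnel, had between 6 and 18 counts in a library, while no other standard member had fewer than 1576. In 62 of the 77 members the mean CPM placed the gene among the 500 highest in the table.

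Many of these levels carry an uncertainty from copies elsewhere in the genome. Of the 77 members, 72 shared at least 1 window of 100 bases of their transcript with an annotated transcript of another gene, and 32 shared 50% or more of their windows. The other genes include named pseudogenes, but their types were not tallied. Rps27 shared 98.4% and Rpl10 91.6% of their windows, whereas Rpl22, Rps3, Rpl32 and Rps21 were among those that shared none. The sources used here do not say how reads matching several genes were counted. Members with 50% or more shared windows had a median level of 751 and the others of 737 CPM per kb.

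To see how far the annotated starts carry the TOP signature, a window around each RefSeq start in GRCm38.p6 was searched on the sense strand for a C followed by at least 4 further C or T, beginning within 10 bases of the start. Of the 77 members, 57 matched the promoter table. Such a tract was present in 31 of them, or 54.4%, against 30.8% of 27025 genes. A tract of 8 or more bases was found in 20 members, or 35.1%, against 8.03% of all genes. In 12 members, or 21.1%, against 2.49%, the annotated start base itself was a C followed by at least 4 further C or T. The run could also have begun upstream of that base. Annotated starts may differ from those used in these cells, and a match is only a description of letters. The following 30 bases, 15 before the start and 15 from it onwards, are shown because their genes rose, kept level or fell between the stages, with the tract in capitals where it has at least 5 bases.
Rps2 (GRCm38.p6 chr17:24720048-24720077, plus strand): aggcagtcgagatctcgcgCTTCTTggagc
Rpl14 (chr9:120571502-120571531, plus strand): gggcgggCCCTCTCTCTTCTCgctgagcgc
Rpsa (chr9:120127751-120127780, plus strand): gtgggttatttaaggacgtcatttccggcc
Rpl28 (chr7:4792950-4792979, plus strand): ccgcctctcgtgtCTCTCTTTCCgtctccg
Rps6 (chr4:86857353-86857382, minus strand): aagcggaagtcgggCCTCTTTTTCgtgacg
Rps27 (chr3:90213634-90213663, minus strand): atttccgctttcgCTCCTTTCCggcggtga
Rpl31 (chr1:39367836-39367865, plus strand): cttcctcctcgCCTCCCCgtgacccggaag
Rpl10 (chrX:74270801-74270830, plus strand): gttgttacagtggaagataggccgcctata
Among these, Rps2 and Rps27 carry a tract and Rpsa has none at this start. Whether a tract bears on the change of an mRNA between stages was not tested. The median log2 fold change from pre-proB to proB cells was 0.47 for the 20 members with 8 or more bases and 0.38 for the 37 others in the table.

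From pre-proB to proB cells of control mice, ribosomal protein mRNAs rose as a group. Of the 77 members, 60 (77.9%) were called higher in proB cells and 3 lower, at an adjusted p under 0.05 by the quasi-likelihood test of edgeR, with p-values adjusted by Benjamini-Hochberg over the 13650 genes tested. Over all genes, 36.2% were called higher and 36.8% lower. The median log2 fold change of the members was 0.40, a 1.32-fold rise, against 0.00 over all genes. In 66 of the 77 members both proB libraries lay above all 4 other control libraries, as in 24.0% of all genes tested. The P stalk proteins Rplp0, Rplp1 and Rplp2 all rose, as did 32 of 43 other large-subunit members and 25 of 31 small-subunit members.

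Rps2, a small-subunit protein near the entry of the mRNA channel, rose most. It was measured at 477 and 501 CPM in pre-proB cells, 1068 and 1212 CPM in proB and 491 and 569 CPM in preB cells. The proB libraries did not overlap with the others, and the log2 fold change from pre-proB to proB was 1.26 ± 0.10 (SE; adjusted p = 5.67e-06). Rpsa, a small-subunit protein also known as a laminin receptor, was at 1062 and 1091 CPM in pre-proB, 1895 and 1972 CPM in proB and 1140 and 1231 CPM in preB cells. Its log2 fold change from pre-proB to proB was 0.88 ± 0.08 (SE; adjusted p = 1.02e-05). Rps2 shared 64.7% of its windows with other genes and Rpsa 38.1%, so that reads of their copies may be part of these values.

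Rpl13 and Rpl36a, of the large subunit, completed the 4 largest rises, both with log2 fold changes of 0.92. Rpl13 had the largest SE of the members but for Rpl39, 0.14, with 173 and 224 CPM in proB cells against 101 and 113 CPM in pre-proB cells. Rps19, the small-subunit protein most often mutated in Diamond-Blackfan anaemia, was at 390 and 393 CPM before and at 691 and 708 CPM in proB cells, with a log2 fold change of 0.87 ± 0.08 (SE; adjusted p = 1.53e-05). The smallest called rises were those of Rps25, Rps24, Rps4x and Rpl9, between 0.23 and 0.24 on the log2 scale. Each of these 4 calls was lost in some alternatives, with adjusted p-values reaching 0.231, 0.258, 0.198 and 0.242.

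Members fixed for known roles outside the ribosome, or at sites of control, rose with the rest, except for Rpl10. It was called lower in proB cells (log2 fold change -0.51) and is described below. Rpl5 and Rpl11, which with 5S rRNA bind Mdm2 and so link ribosome assembly to p53, rose by 0.43 and 0.31 on the log2 scale (adjusted p = 0.00127 and 0.00781). Rps6, the substrate of S6 kinase, was at 569 and 622 CPM in pre-proB and at 739 and 754 CPM in proB cells, a log2 fold change of 0.36 (adjusted p = 0.00362). Rps27a, made as a fusion with ubiquitin, rose by 0.46, Rps3, at the mRNA entry, by 0.39, and Rpl38, known for the translation of Hox mRNAs, by 0.34 on the log2 scale. Rpl22, whose loss blocks αβ T cell development in mice, was at 269 and 267 CPM before and at 367 and 399 CPM in proB cells, with a log2 fold change of 0.55 (adjusted p = 0.000325). Adjusted p-values for Rps27a, Rps3 and Rpl38 were 0.000747, 0.00312 and 0.00566.

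**Figure D2:**
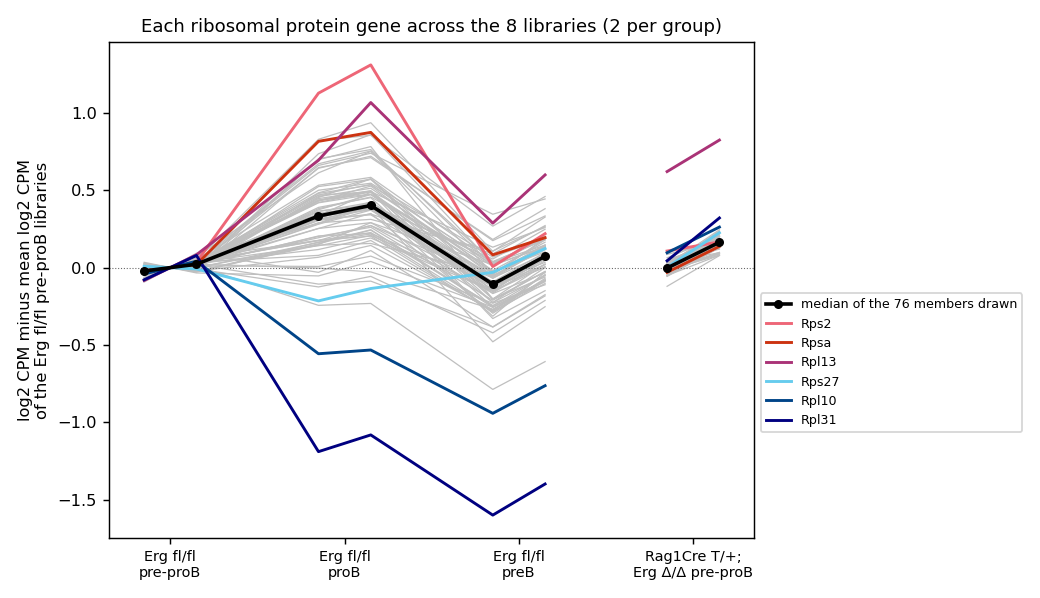
Log2 CPM of each standard member minus its mean in the 2 control pre-proB libraries (vertical axis) in the 8 libraries, 2 per group, with replicate 1 to the left; grey lines are members, the black line their median, and coloured lines the members named in the key. Rpl39 is not drawn because of its 6 to 18 counts. Most lines peak in proB cells, Rps27 dips there, and Rpl10 and Rpl31 lie lower in proB and preB cells than in pre-proB cells of either genotype.

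The members called lower in proB than in pre-proB cells included Rpl31 and Rpl10, which were lower again in preB cells. Rpl10, which joins the large subunit at a late step of its maturation, was at 1399 and 1482 CPM in pre-proB, 979 and 996 CPM in proB and 750 and 849 CPM in preB cells. The 3 stages did not overlap. The log2 fold change was -0.51 ± 0.08 (SE; adjusted p = 0.000566) from pre-proB to proB and -0.30 (adjusted p = 0.0149) from proB to preB. The second call held in 13 of 16 alternatives, with adjusted p-values up to 0.0791.

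Rpl31, a protein at the exit of the peptide tunnel, showed the largest fall, but its value cannot be separated from that of a neighbour. It was at 1002 and 1118 CPM in pre-proB cells, 464 and 500 CPM in proB and 349 and 402 CPM in preB cells. The log2 fold change from pre-proB to proB was -1.10 ± 0.10 (SE; adjusted p = 1.07e-05). On the opposite strand, exons of Tbc1d8 overlap those of Rpl31 by up to 420 bases. Tbc1d8, which was singled out after its values had been seen, was at 818 and 875 CPM in pre-proB, 12.5 and 16.6 CPM in proB and 4.19 and 4.23 CPM in preB cells. Its fall moved with that of the plasmacytoid dendritic cell markers, of which 8 of 8 were lower in proB than in pre-proB cells. At that step 36.8% of all genes tested were called lower. Whether counting used strand is not stated in the sources used here. Reads of the 2 genes can thus not be told apart, and the part of Tbc1d8 in the fall of Rpl31 was not tested. From proB to preB cells, Rpl31 fell by 0.35 on the log2 scale (adjusted p = 0.0127), a call lost in 2 alternatives (adjusted p up to 0.0856). Rpl35 was the only other member with an opposite-strand neighbour, Arpc5l, that reached a like level, up to 115% of its CPM, with an overlap of 62 bases; for the others that neighbour stayed at or under 20.9% of the member.

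**Figure D3:**
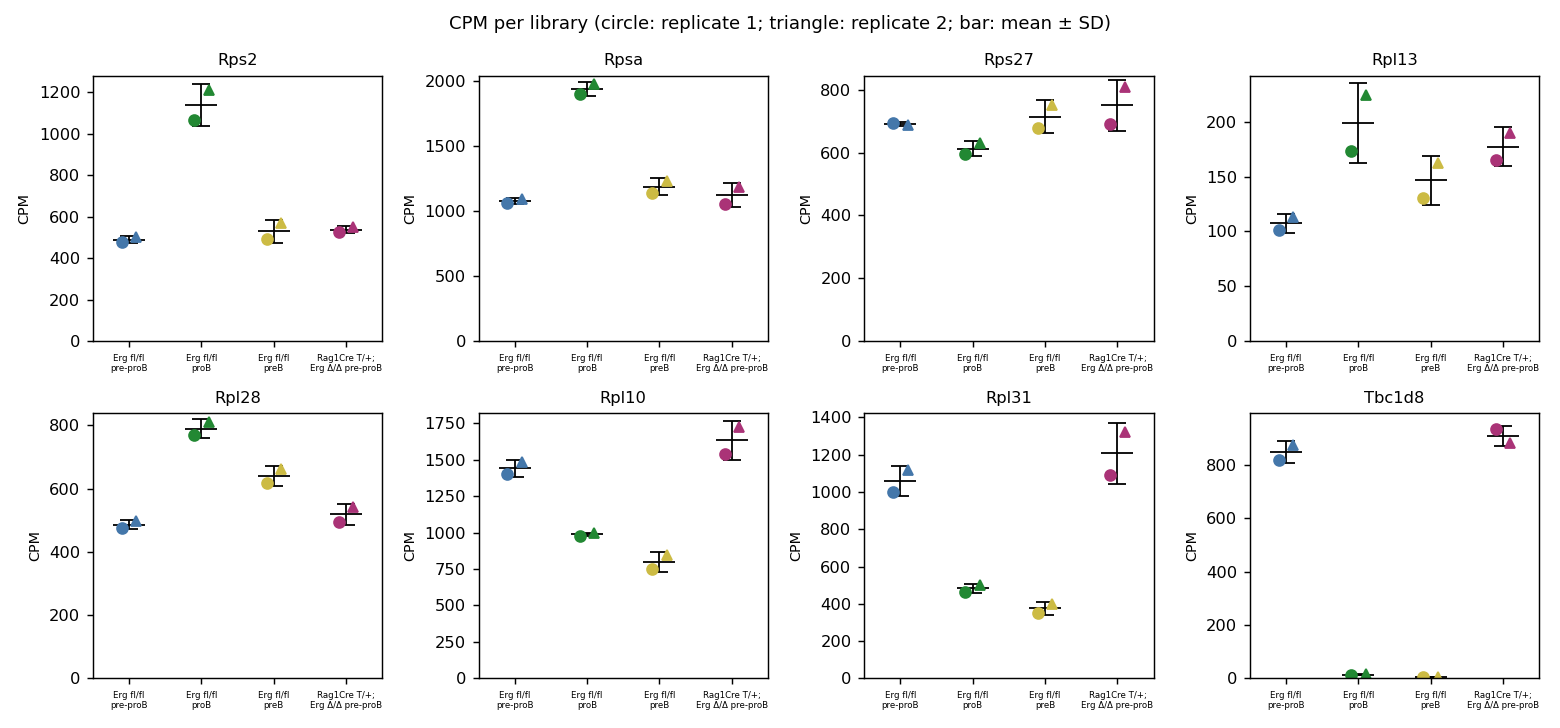
CPM per library (vertical axis of each panel) of 7 members and of Tbc1d8, the neighbour of Rpl31 on the opposite strand, by group; circles are replicate 1, triangles replicate 2, bars the mean ± SD of the 2 libraries. Rps2 and Rpsa peak in proB cells, Rpl28 stays higher in preB than in pre-proB cells, Rpl10 steps down from pre-proB to preB cells, and Rpl31 is high where Tbc1d8 is high.

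The other 14 members did not pass the test from pre-proB to proB cells. Rps27 was at 696 and 688 CPM in pre-proB and 596 and 630 CPM in proB cells (log2 fold change -0.14, adjusted p = 0.139). Rpl30, Rps14, Rps9 and Rpl35a had log2 fold changes of -0.06, -0.06, 0.02 and 0.03. Their standard errors were close to 0.08 on the log2 scale, so that each of these values lay well under the median of the members. Rpl39 had the second-largest estimate, 0.97 ± 0.40 (SE; adjusted p = 0.0557), on 6 and 9 counts against 16 and 18.

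From proB to preB cells, ribosomal protein mRNAs fell. Of the 77 members, 63 (81.8%) were called lower in preB cells and 1 higher, where 29.9% of all genes tested were called lower and 29.0% higher. The median log2 fold change was -0.37, against 0.00 over all genes. The fall was similar in both subunits, with medians of -0.38 in the large and -0.36 in the small subunit. Between the 2 preB libraries the members' median log2 CPM differed too, at 8.91 and 9.12, while both lay under the proB medians of 9.34 and 9.41. Leaving out the lower preB library gave 46 members lower, with a median of -0.28, and leaving out the higher one gave 74, with a median of -0.50.

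The largest falls were those of Rps2, Rpl14, Rpl3 and Rplp1. Rps2 fell by 1.10 on the log2 scale (adjusted p = 4.1e-05), which returned it close to its pre-proB level. Rpl14, of the large subunit, was at 796 and 844 CPM in proB and 426 and 482 CPM in preB cells, a log2 fold change of -0.85 ± 0.08 (SE; adjusted p = 5.83e-05). Rpl3, which lies near the peptidyl transferase centre, was at 1482 and 1506 CPM in proB and 853 and 967 CPM in preB cells, with a log2 fold change of -0.71 (adjusted p = 0.000163). Rplp1 was at 951 and 1010 CPM in proB and 552 and 646 CPM in preB cells, and fell by 0.70 on the log2 scale (adjusted p = 0.000268). Rplp0 and Rplp2 fell by 0.65 and 0.55, and Rpsa by 0.70 on the log2 scale. The smallest called falls, those of Rpl13a, Rpl37a, Rpl26 and Rpl23a, lay between -0.26 and -0.20, and each was lost in 3 of 16 alternatives.

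The members fixed for their roles took part in this fall. Rpl22, Rpl38 and Rps27a fell by 0.45, 0.48 and 0.58 on the log2 scale (adjusted p = 0.00179, 0.00129 and 0.000327). Rpl5, Rpl11, Rps6 and Rps3 fell by 0.35, 0.29, 0.37 and 0.31 on the log2 scale, with adjusted p-values of 0.00553, 0.0127, 0.00473 and 0.014. The calls of Rpl11 and Rps3 held in 14 of 16 alternatives each, with adjusted p-values up to 0.0691 and 0.0736. Rps19 fell by 0.46 on the log2 scale (adjusted p = 0.00135).

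Rps27, an exception, was the only member called higher in preB than in proB cells. It was at 677 and 753 CPM in preB cells, against 596 and 630 CPM in proB cells, with a log2 fold change of 0.23 ± 0.08 (SE; adjusted p = 0.0331). The libraries did not overlap, but the call held in 9 of 16 alternatives, with adjusted p-values up to 0.262. Rps27 and its retrogene Rps27rt share nearly all windows. Fau, whose product is cut into a ubiquitin-like protein and the small-subunit protein eS30, moved the same way, at 430 and 433 CPM in proB and 473 and 550 CPM in preB cells (log2 fold change 0.25, adjusted p = 0.0296), a call lost in 6 alternatives.

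Between preB and pre-proB cells few members were called. The test called 9 members higher and 6 lower in preB cells, where 36.5% of all genes were called higher and 34.1% lower. The median log2 fold change was 0.03 over the members and 0.04 over all genes. With DESeq2's size factors in place of TMM, the counts were 6 higher and 8 lower and the median was -0.01. These counts also rested on single libraries. Without preB replicate 1 there were 20 higher and 3 lower, without preB replicate 2 there were 2 higher and 24 lower, without pre-proB replicate 1 there were 3 higher and 10 lower, and without proB replicate 2, which shares the fit, 5 higher and 7 lower.

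Rpl13, Rpl28, Rps19 and Rpl12 had the largest rises, with log2 fold changes of 0.49, 0.44, 0.41 and 0.33. Rpl28, a large-subunit protein, was at 476 and 496 CPM in pre-proB, 768 and 811 CPM in proB and 617 and 661 CPM in preB cells, so that the 3 stages did not overlap (adjusted p = 0.000788 for preB against pre-proB). Rps3a1, Rpl7, Rpl23a and Rpl36a had the smallest called rises, between 0.23 and 0.26. These calls held in 8, 6, 12 and 10 of 16 alternatives, with adjusted p-values up to 0.241, 0.208, 0.224 and 0.245. At the other end, Rpl31 and Rpl10 had log2 fold changes of -1.46 and -0.81 (adjusted p = 2.21e-06 and 3.6e-05), and these calls held in all 16 alternatives. Rplp1, Rps14 and Rpl30 were also called lower, by 0.32, 0.27 and 0.23 on the log2 scale. Rpl31 carries here too the limit from Tbc1d8, with a log2 fold change of -7.61.

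In all, 54 members were called higher in proB than in pre-proB cells and then lower in preB than in proB cells, a pattern found in 17.4% of all genes tested. Both steps use the same proB libraries, so the steps are not independent of each other. Of the 54, 46 were not called between preB and pre-proB cells, 7 were higher and 1, Rplp1, was lower. For 5 members, Rpl19, Rpl34, Rpl35a, Rpl39 and Rps9, no step was called.

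Between genotypes, ribosomal protein mRNAs of pre-proB cells had small differences. Of the 77 members, 1 was called higher in Erg-deleted than in control pre-proB cells and 0 lower, over 13005 genes tested, of which 0.215% were called higher and 0.946% lower. Only that member had an unadjusted p under 0.05, against 1624 of all 13005 genes tested. DESeq2 and limma-voom also called 1 higher and 0 lower. The median log2 fold change was 0.07, or 1.05-fold, against 0.01 over all genes. The estimate was above 0 for 76 of 77 members, but this sign moved with 1 library: without Erg-deleted replicate 2, the median was -0.02 and 23 members were above 0. The standard error of most members was under 0.10 on the log2 scale.

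The member called was Rpl13, a large-subunit protein whose gene lies at GRCm38 chr8:123102350-123105244 and holds 1 snoRNA gene. It was at 101 and 113 CPM in control and 165 and 190 CPM in Erg-deleted pre-proB cells. The groups did not overlap, and the log2 fold change was 0.71 ± 0.09 (SE; adjusted p = 0.0227). It was not called without Erg-deleted replicate 1 (adjusted p = 0.0758) or replicate 2 (adjusted p = 0.139), and was called in the other 12 of 14 alternatives, with adjusted p-values between 3.1e-08 and 0.0438. Rpl13 shared 78.9% of its windows with 7 other genes, among them the pseudogene Rpl13-ps6, so that the locus of origin of these reads is uncertain. The next members by p were Rpl10, Rps2, Rpl10a and Rpl31, with log2 fold changes of 0.17, 0.12, 0.12 and 0.18 and adjusted p-values between 0.476 and 0.556. Rpl31 was at 1091 and 1322 CPM and Tbc1d8 at 934 and 882 CPM in these cells, both near their control levels.

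Markers of other cells were called by genotype where the members, but for Rpl13, were not. Of 10 B-lineage markers, 8 were called lower, none of them in all 14 alternatives, and they summed to 377 and 488 CPM in Erg-deleted against 2128 and 1009 CPM in control pre-proB cells. Of 8 NK cell markers, 4 were called higher, none of them in every alternative. Over all genes tested, 0.946% were called lower and 0.215% higher. The NK markers summed to 250 and 373 CPM in Erg-deleted against 199 and 200 CPM in control pre-proB cells. Most of the control sum came from Klrd1, at a mean of 174 CPM. The 4 called, Gzma, Klra8, Ncr1 and Prf1, had control means between 2.26 and 3.00 CPM. No defining marker of either list was at 0 in the control libraries. Of 6 T cell markers, 0 were called by genotype. They summed to 609 and 762 CPM in control and to 1423 and 776 CPM in Erg-deleted pre-proB cells. The part of any of these cell types in the level of a member was not tested.

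**Figure D4:**
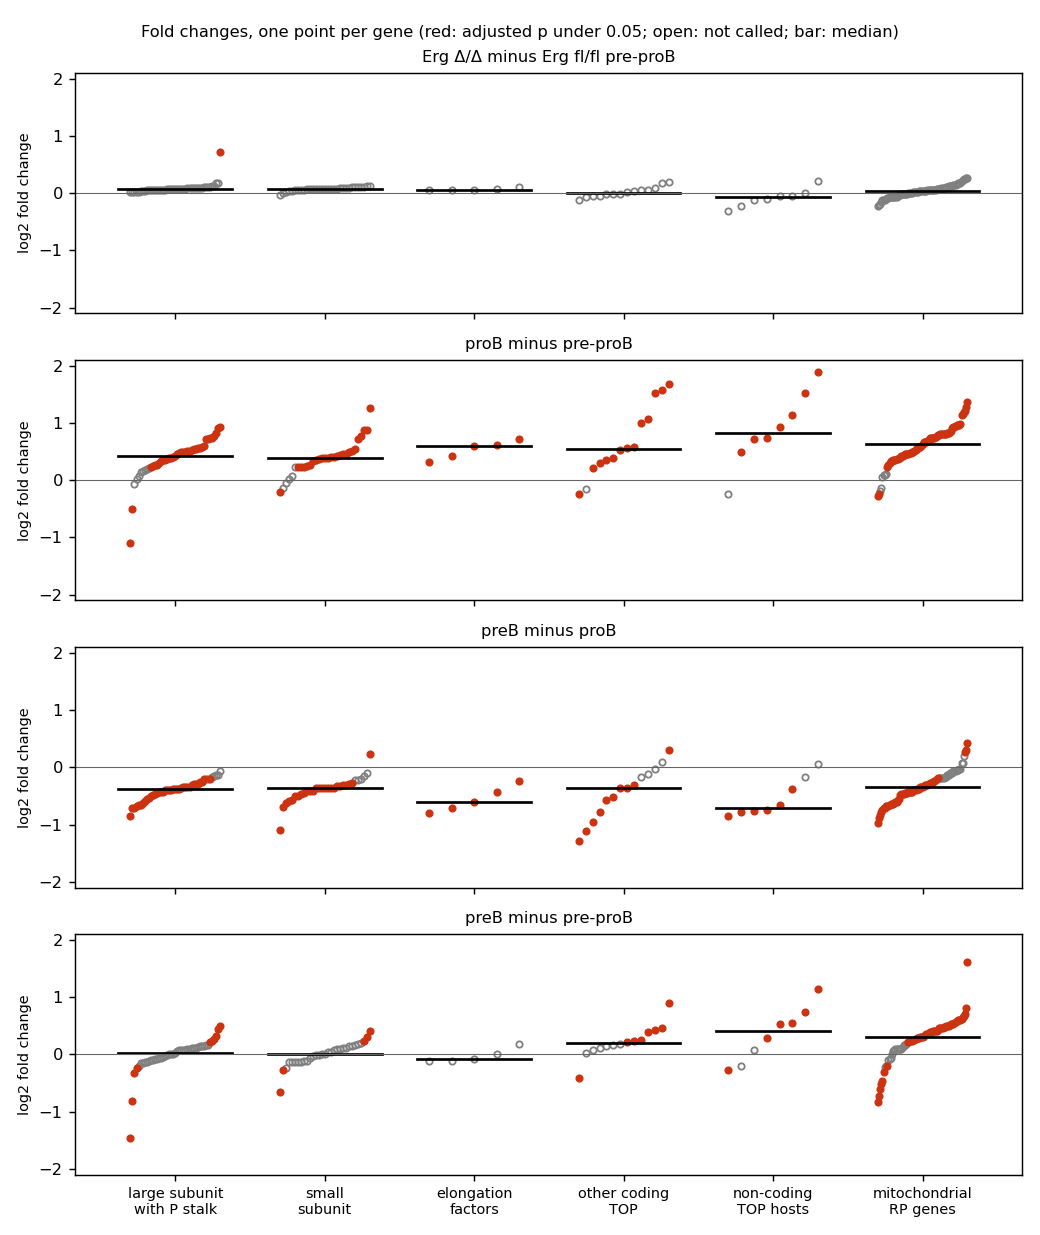
Log2 fold change (vertical axis) of each tested gene in the 4 comparisons, by gene list; red points passed the adjusted p threshold of 0.05, open points did not, and bars are medians. Rpl39 is left out. The members centre on 0.07 for genotype, 0.40 from pre-proB to proB, -0.37 from proB to preB and 0.03 from pre-proB to preB cells, and Rpl13 is the 1 red point for genotype.

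Among the 10 paralogs, 6 had enough counts to be tested. Rpl22l1, the paralog of Rpl22, was at 94.7 and 93.8 CPM in pre-proB, 159 and 167 CPM in proB and 99.3 and 117 CPM in preB cells. It rose by 0.83 to proB cells (adjusted p = 2.37e-05) and fell by 0.59 to preB cells (adjusted p = 0.00039) on the log2 scale, a course like that of Rpl22. Per length, its level was 30.2% of that of Rpl22 in both control pre-proB libraries and 28.9% and 32.8% in the Erg-deleted libraries. It was 37.2% and 36.0% at the proB stage, and 32.6% and 33.7% at the preB stage.

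Rps27l, a paralog of Rps27 known as a p53 target, changed at both steps. It was at 40.2 and 46.5 CPM in pre-proB, 68.5 and 80.9 CPM in proB and 39.35 and 46.03 CPM in preB cells, with log2 fold changes of 0.82 (adjusted p = 0.000213) and -0.80 (adjusted p = 0.000467). Per length it stood at 4.00% and 4.67% of Rps27 at the pre-proB stage, 7.95% and 8.88% at the proB stage, and at 4.02% and 4.22% at the preB stage. Rpl36al, the paralog of the X-linked Rpl36a, was at 143 and 154 CPM in pre-proB, 131 in both proB libraries and 89.0 and 103 CPM in preB cells. It did not pass the test from pre-proB to proB (log2 fold change -0.15, adjusted p = 0.125), while Rpl36a rose by 0.92. Per length, Rpl36al thus stood at 67.8% and 68.3% of Rpl36a in control and at 71.9% and 69.6% in Erg-deleted pre-proB cells. It stood at 33.8% and 31.3% at the proB stage and at 37.95% and 37.68% at the preB stage. The ratios of the stages did not overlap for Rpl36al and Rpl36a, and were not tested beyond the exact permutation limit of p = 0.33 for 2 libraries against 2. Rpl36a shared 83.6%, Rpl36al 59.0% and Rps27 98.4% of their windows with other genes, so that reads of copies may be part of these ratios.

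Rpl3l, the striated-muscle paralog of Rpl3, had 138 and 104 counts in the control pre-proB libraries and 53 and 47 counts in Erg-deleted libraries. The groups did not overlap, and the log2 fold change of -1.27 ± 0.25 (SE) missed the threshold (adjusted p = 0.0763). It passed in 4 of 14 alternatives, with adjusted p-values between 0.0126 and 0.305. Its level stood between 0.251% and 0.924% of that of Rpl3 per length, and in proB and preB libraries its counts lay between 130 and 168. Rpl37rt and Rps27rt, retrogenes that share windows with their parents, had 22 to 37 and 19 to 32 counts a library and were not called in any comparison. Rps23rg1, Rpl32l and Rpl39l had at most 9 counts a library, and Rpl10l, a testis gene, had none in any library, a count of 0 that allows up to 3 counts in a library.

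**Figure D5:**
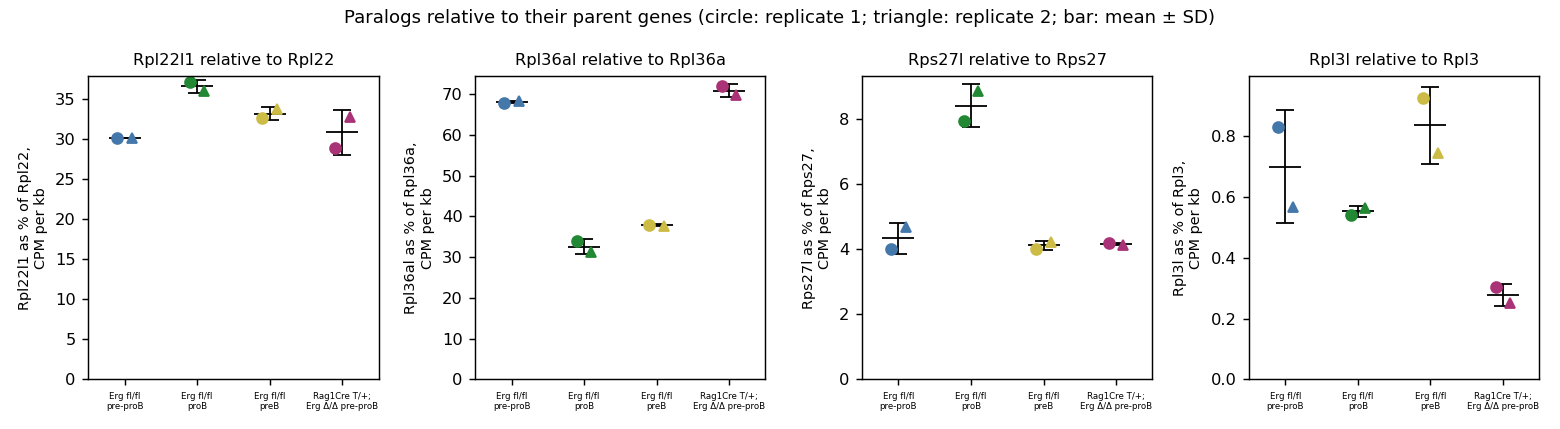
Level of 4 paralogs as a percentage of the level of their parent gene, both in CPM per kb of transcript (vertical axis), by group; circles are replicate 1, triangles replicate 2, bars the mean ± SD of the 2 libraries. Rpl36al is at 67.8% and 68.3% of Rpl36a in control pre-proB cells and at 33.8% and 31.3% in proB cells, and Rps27l at 4.00% and 4.67% and at 7.95% and 8.88% of Rps27.

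Among other genes of translation, Rack1, a scaffold on the small subunit, rose by 0.42 from pre-proB to proB cells and fell by 0.26 to preB cells on the log2 scale, the second call being lost in 3 alternatives (adjusted p up to 0.142). Fau took another course, with a log2 fold change of -0.17 that was not called at the first step and its higher level in preB cells at the second. All 5 elongation factor genes fixed as TOP mRNAs rose from pre-proB to proB cells and all 5 fell to preB cells, with medians of 0.59 and -0.60. The shares of all genes tested that were called in these directions were 36.2% and 29.9%. Eef1a1, which brings aminoacyl-tRNA to the ribosome, was at 4391 and 4617 CPM in pre-proB, 5445 and 5584 CPM in proB and 3808 and 4318 CPM in preB cells. Eef1g had the largest changes of the list, 0.73 and -0.80, followed by Eef1b2 at 0.61 and -0.60 and Eef1d at 0.59 and -0.70. Eef2, which moves the ribosome along the mRNA, had log2 fold changes of 0.42 and -0.23, the latter not called in 4 alternatives (adjusted p up to 0.121).

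Of 14 other coding TOP mRNAs, 12 rose and 1, Vim, fell from pre-proB to proB cells, with a median of 0.54. From proB to preB cells 9 fell and 1, Eif3f, rose, with a median of -0.36. Of all genes tested, 36.2% were called higher and 36.8% lower at the first step, and 29.0% and 29.9% at the second. The log2 rises of Nap1l1, a histone chaperone, Ipo5, a nuclear importer, and Npm1, a nucleolar assembly factor, were above that of any standard member. Npm1 was at 531 and 529 CPM in pre-proB, 1422 and 1539 CPM in proB and 564 and 648 CPM in preB cells, with log2 fold changes of 1.52 (adjusted p = 9.51e-07) and -1.28 (adjusted p = 1.25e-05). Nap1l1 rose by 1.67, Ipo5 by 1.57, Ipo7 by 1.07 and Pabpc1, the poly(A) binding protein, by 1.00 on the log2 scale. The initiation factors Eif3e, Eif3h and Eif4b and the genes Naca, Btf3, Tpt1 and Hnrnpa1 rose by 0.21 to 0.58, and Eif3f did not pass the test there (log2 fold change -0.16).

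Of 8 non-coding snoRNA hosts with a TOP start, 7 rose from pre-proB to proB cells and 6 fell to preB cells, with medians of 0.83 and -0.70. Among all genes tested, 36.2% and 29.9% were called in these directions. Snhg12, Snhg5 and Snhg1 rose most, by 1.90, 1.52 and 1.14 on the log2 scale, then Zfas1, Snhg6, Snhg8 and Gas5 by 0.93, 0.74, 0.71 and 0.50, and Epb41l4aos had a log2 fold change of -0.25 (adjusted p = 0.124). Among the standard members themselves, 30 genes held 59 annotated snoRNA genes, and their median log2 fold change to proB cells was 0.46, against 0.39 for the 47 without. Mitochondrial ribosomal protein genes, a separate set for the ribosome of mitochondria, moved alike, with 68 of 77 tested higher and 2 lower in proB than in pre-proB cells (median 0.62) and 50 lower and 3 higher in preB than in proB cells (median -0.34). From pre-proB to preB cells 48 were higher and 7 lower, with a median of 0.31. Over all genes, 36.2% were higher and 36.8% lower in the first comparison, and 29.0% higher and 29.9% lower in the second. In the last, 36.5% were higher and 34.1% lower.

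For genotype, edgeR called 0 genes in each of these lists. At an unadjusted p under 0.05 there were 0 of 5 elongation factors, 2 of 14 other coding TOP mRNAs, 1 of 8 snoRNA hosts and 1 of 77 mitochondrial ribosomal protein genes. Over all genes tested there were 1624 of 13005.

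Of 13 regulators of TOP mRNAs or of ribosomal protein transcription, 7 (53.8%) were called higher in proB than in pre-proB cells, against 36.2% of all genes tested. Myc was at 20.5 and 14.4 CPM in pre-proB, 168 and 175 CPM in proB and 20.1 and 23.6 CPM in preB cells, with log2 fold changes of 3.34 (adjusted p = 1.08e-07) and -2.97 (adjusted p = 2.81e-06). Its course over the stages had the direction of the members' course. In Erg-deleted pre-proB cells Myc was at 6.25 and 5.81 CPM, a log2 fold change of -1.55 ± 0.21 (SE; adjusted p = 0.0293) against the control, where 0 members were called lower. This call was lost in 3 alternatives (adjusted p up to 0.189). The part of Myc in the members' levels, between stages or genotypes, was not tested. Mycn, a relative of Myc, stayed under 2.5 CPM in all libraries.

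Mtor, the kinase itself, was at 112 and 106 CPM in pre-proB, 178 and 161 CPM in proB and 262 and 244 CPM in preB cells, and rose at both steps, by 0.67 and 0.58 on the log2 scale (adjusted p = 3.72e-05 and 0.000182). Its partner Rptor rose by 0.59 to proB cells and did not pass the test to preB cells (adjusted p = 0.061). Eif4ebp1 and Eif4ebp2, repressors of cap-dependent translation that mTOR inactivates, rose by 1.80 and 0.53 to proB cells, and neither passed the test to preB cells (adjusted p = 0.52 and 0.464). Larp1 was at 243 and 258 CPM in pre-proB and 253 and 266 CPM in proB cells, and fell to 142 and 136 CPM in preB cells (log2 fold change -0.89, adjusted p = 1.63e-05). Larp4 rose by 0.27 and fell by 0.20, and Rheb, the activator of mTOR, fell by 0.37 to preB cells on the log2 scale. Tsc1 and Rps6kb2 rose by 0.37 and 0.35 to preB cells on the log2 scale, while Tsc2 and Rps6kb1 were called at neither step.

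The members' course stood beside that of 10 proliferation genes. All 10 rose from pre-proB to proB cells, with a median of 2.14, and all 10 fell to preB cells, with a median of -0.56, so that in preB cells they stood above their pre-proB level with a median of 1.58. The members' median at that last comparison was 0.03. Called higher at the first step were 36.2% of all genes tested, and called lower at the second 29.9%. The markers of plasmacytoid dendritic cells (8 of 8), T cells (6 of 6) and NK cells (7 of 8) were called lower in proB than in pre-proB cells. Of all genes tested, 36.8% were called lower there. The part of these cells in the rise of the members, and that of proliferation, was not tested.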

How the data were processed

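The authors deposited the counts used here, whole numbers of reads per Entrez gene without normalization, for 8 libraries. By their methods, reads were trimmed with Trim Galore, aligned to mm10 with STAR and counted with featureCounts and the annotation built into Rsubread. The sources used here state neither strand use nor the handling of reads matching several genes, which affect overlapping genes and near-identical copies. RefSeq symbols were found for 25275 of 27179 identifiers. CPM used TMM factors over the 8 libraries. Genes reaching 0.5 CPM in 2 or more libraries were tested with edgeR 4.0.16 (glmQLFit, legacy method, glmQLFTest) in R 4.3.3, with Benjamini-Hochberg adjustment over the genes tested. Genotype was fitted on 4 libraries, all pre-proB, and the stages on 6, all control. SE is the size of the log2 fold change over the root of F. Lengths and overlaps came from GENCODE M21, promoters from RefSeq (GRCm38.p6). Alternatives used DESeq2 1.42.0 and limma 3.58.1. Named genes were those called by genotype or with the 5 lowest p there, the 4 largest and 4 smallest called changes per stage comparison and direction, paralogs, members fixed by role, the 3 highest and 3 lowest levels, and all genes of the fixed lists. Members and lists were chosen with earlier results of these data known. Some genes that this rule names are not reported here.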

Additional observations from a re-analysis of the deposited data

How the results depend on the processing

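No called change of a member, a paralog or a gene of the fixed lists changed sign in any alternative in which it was tested. The balance of calls did turn in preB against pre-proB cells, from 9 higher and 6 lower to 6 and 8 with DESeq2's size factors or all 8 libraries in the fit, 5 and 9 with no filter, and more lower than higher without pre-proB replicate 1, proB replicate 2 or preB replicate 2. Of the members called, 15 of 63 for proB against pre-proB, 19 of 64 for preB against proB and 10 of 15 for preB against pre-proB cells lost the call in at least 1 alternative. The members' median changed sign for preB against pre-proB cells and for genotype. The counts of members called higher (60) and lower (3) in proB against pre-proB cells, and lower (63) in preB against proB cells, stayed within 1.5 times under every scaling, filter and tool. Without 1 replicate they ranged from 46 to 65, from 2 to 3 and from 46 to 74. The 1 member higher in preB than in proB cells became 0 with total counts, with TMM without the members, with no filter and with all 8 libraries in the fit, and ranged from 0 to 1 without 1 replicate. For preB against pre-proB cells, leaving out 1 replicate gave 2 to 20 higher and 3 to 24 lower. For genotype, leaving out 1 replicate gave 0 to 1 members higher. The cause of these moves was not tested, beyond the smaller number of libraries. The labels do not say whether a number marks a mouse, and the correlations of deviations of same-numbered libraries lay between -0.035 and 0.15, so pairing was not settled. With a replicate block, the calls higher and lower were 1 and 0 for genotype, 64 and 3 for proB against pre-proB, 1 and 68 for preB against proB and 13 and 9 for preB against pre-proB cells. Depth limits only Rpl39 and the lowest paralogs; 2 libraries a group limit the rest.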
